A study of Mus musculus with 4 samples.

Results

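The 9 genes described here mark successive steps of the oligodendrocyte lineage: the transcription factors Olig1, Olig2 and Nkx2-2, the precursor surface proteins Pdgfra and Cspg4, the receptor Gpr17 and the protein Bcas1 of newly forming oligodendrocytes, and the myelin proteins Cnp and Mbp. They were taken by symbol from a table of raw counts with 25965 entries, most of them 1 gene each, in female mouse neural stem cells, and all 9 were found once and passed the filter on low counts, as did 14860 genes in all. Deleted cells were Smchd1 del/del, had received a retrovirus carrying Cre recombinase and puromycin resistance (MSCV-Cre-puro), were put under puromycin 24 h later and were harvested 7 days after transduction. Undeleted cells were Smchd1 del/fl, came from the same lines and were neither transduced nor selected. Both groups therefore already carried 1 deleted Smchd1 allele, a maternal 129 X with the Xist deltaA mutation and a paternal Castaneus X, on a mixed C57BL/6, 129 and Castaneus background, and the lines had been made from E14.5 embryos. There were 2 lines, called A and B, with 1 deleted and 1 undeleted library each, so 2 libraries per group, and further lines of the study were not analysed here. Loss of Smchd1, transduction and puromycin cannot be told apart, and p-values cover the spread of these cultures only.

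Oligodendrocytes arise from neural stem cells by way of precursors that divide in response to platelet-derived growth factor, which binds the receptor encoded by Pdgfra. Olig2 and its neighbour Olig1 encode basic helix-loop-helix proteins that bind E-boxes. Olig2 is needed to specify the lineage and is also commonly expressed by neural stem cells in culture, and Nkx2-2 acts with it as precursors differentiate. Cspg4 encodes the NG2 proteoglycan of precursors, and Gpr17 marks a passing stage between precursor and myelinating cell. Cnp encodes a phosphodiesterase of oligodendrocytes and Mbp the structural protein of compact myelin. Cspg4 is also known from pericytes, and Pdgfra from other mesenchymal cells.

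Promoter sequences are shown for Pdgfra and Nkx2-2, which differed between lines, and for Olig2, the neighbour of Olig1, because E-boxes, written CANNTG, are the sites that Olig proteins and their partners bind. Each runs from 250 bases before to 50 after the RefSeq gene start (GRCm38.p6), with each CANNTG match in capitals. The windows are chr5:75152001-75152300 on the plus strand for Pdgfra, chr2:147186353-147186652 on the minus strand for Nkx2-2 and chr16:91225300-91225599 on the plus strand for Olig2. That of Nkx2-2 covers a start inside the counted gene, which runs from 147177546 to 147194243, and not the upstream end of that gene.
Pdgfra: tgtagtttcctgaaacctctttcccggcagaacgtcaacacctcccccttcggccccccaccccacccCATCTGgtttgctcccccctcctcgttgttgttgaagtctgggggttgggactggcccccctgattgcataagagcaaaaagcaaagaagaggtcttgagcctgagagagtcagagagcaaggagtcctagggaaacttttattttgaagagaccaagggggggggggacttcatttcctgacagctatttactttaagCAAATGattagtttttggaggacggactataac
Nkx2-2: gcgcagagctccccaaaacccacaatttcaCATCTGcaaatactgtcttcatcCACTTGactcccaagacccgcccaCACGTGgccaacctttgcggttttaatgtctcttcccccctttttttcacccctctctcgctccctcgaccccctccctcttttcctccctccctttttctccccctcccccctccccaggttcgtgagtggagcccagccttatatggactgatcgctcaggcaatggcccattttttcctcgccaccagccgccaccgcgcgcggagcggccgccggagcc
Olig2: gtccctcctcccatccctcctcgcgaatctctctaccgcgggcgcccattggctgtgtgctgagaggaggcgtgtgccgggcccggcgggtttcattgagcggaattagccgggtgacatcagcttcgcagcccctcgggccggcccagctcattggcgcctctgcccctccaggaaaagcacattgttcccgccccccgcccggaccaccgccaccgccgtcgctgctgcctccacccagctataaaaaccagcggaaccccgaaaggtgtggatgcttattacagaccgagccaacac

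The Pdgfra window held 2 E-box matches, that of Nkx2-2 held 3 and that of Olig2 held 0, while 72.1% of 27025 promoters of this length held at least 1. The variant CAGCTG, which is contained in CANNTG, was in none of the 3 windows and in 16.1% of all promoters. The Sox-type motif ACAANG, searched on both strands, matched 1 time each in the Pdgfra and Olig2 windows, 0 times in that of Nkx2-2 and in 41.6% of all promoters. The Nkx2-type motif AAGTG, also searched on both strands, matched 1 time in the window of Nkx2-2, where it overlapped an E-box, 0 times in the other two, and in 46.5% of all promoters. A match describes letters and not a bound site. Of the 9 genes, 5 had an entry in the promoter table.

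The libraries held 33572648 and 31823877 counts in deleted cells of lines A and B, against 29873400 and 34018500 in undeleted cells. Smchd1, counted over the whole gene, had 785 and 852 counts in deleted cells of lines A and B, against 2779 and 3461 in undeleted cells (log2 fold change −1.96 with SE 0.07, edgeR adjusted p = 0.0194). The deleted library of line A stood apart in an interferon-induced gene, with 996 counts of Ifit1 against 24 in deleted B and 25 and 17 in undeleted A and B, so fold changes within each line are given beside the fit over both lines. Levels below are CPM, counts scaled by edgeR to a common library size, and in bulk cultures fewer cells of a type and less RNA per cell cannot be told apart.

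Olig1 and Olig2 were the highest of the 9 genes and Mbp the lowest. In CPM per kilobase of exon (exon lengths from GENCODE M21), Olig1 averaged 788 over the 4 libraries, with a range of 730 to 863, and Olig2 averaged 314, with a range of 287 to 370. Neither range met that of any other of the 9 genes. Cnp followed at 22.6 (20.1 to 24.6) on the same scale. Nkx2-2 at 9.52, Bcas1 at 6.10, Cspg4 at 4.61, Pdgfra at 3.02 and Gpr17 at 0.614 came next, and among these 5 each range overlapped that of its neighbour in the order. Mbp was the lowest, at 0.0450 to 0.122 in every library. Its highest library was still below the lowest of Gpr17, at 0.190.

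**Figure D1:**
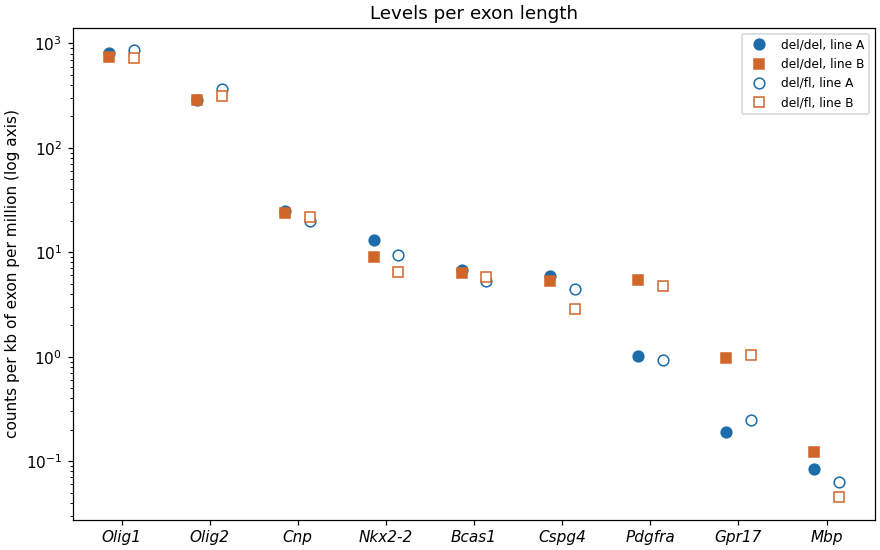
Level of the 9 genes per exon length (CPM per kilobase of exon, log axis), with filled symbols for del/del and open symbols for del/fl libraries, circles for line A and squares for line B. Olig1 and Olig2 lie above all others, Mbp lies below 0.2, and Pdgfra and Gpr17 split by line.

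Between deleted and undeleted cells, 0 of the 9 genes passed the test (edgeR with line as a block, Benjamini-Hochberg over all 14860 genes, threshold 0.05), where 5.60% of all genes did. DESeq2 with the same block called 1, Cspg4. At an unadjusted p under 0.05 there were 4 of the 9, Olig2, Cspg4, Cnp and Nkx2-2, where 30.8% of all genes were. Of the 9 fold changes 6 were positive, and their median log2 value was 0.21 against 0.01 over all genes tested. The median size of the change was 0.24 for the 9 genes and 0.19 for all genes. In 5 genes, Olig2, Cspg4, Cnp, Mbp and Bcas1, the libraries of the groups did not overlap in CPM, as was so for 45.7% of all genes. With 2 libraries a group, these counts lie near those of genes at large.

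Olig1 and Olig2 lie 41091 bases apart on chromosome 16. Olig1 (91269769 to 91271939, mm10, plus strand) had 58546 and 51784 counts in deleted cells of lines A and B, against 55429 and 53795 in undeleted cells. That is 1684 ± 91.8 CPM in deleted and 1722 ± 203 CPM in undeleted cells (SD, n = 2 each), and the groups overlap (log2 fold change −0.03, SE 0.08, 95% interval −0.25 to 0.19, edgeR adjusted p = 0.845). The interval leaves room for a change of 0.844-fold to 1.14-fold. Olig2 (91225550 to 91228677, plus strand) had 24513 and 23213 counts in deleted cells of lines A and B, against 27779 and 26901 in undeleted cells, or 729 ± 4.60 CPM in deleted and 862 ± 103 CPM in undeleted cells (SD, n = 2 each). Both deleted libraries were below both undeleted ones, with a log2 fold change of −0.24 (SE 0.09, 95% interval −0.47 to −0.01) that did not pass the adjustment (edgeR adjusted p = 0.156). The value in line A was −0.35 and that in line B −0.12, and the exact 95% counting intervals, −0.38 to −0.33 and −0.15 to −0.10, do not meet. Such intervals cover counting error only. Leaving out 1 library, which drops the block, gave −0.12 without undeleted A to −0.36 without undeleted B.

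Among the 597 other genes within 1.5 log2 CPM of Olig2, the 3 whose profile over the 4 libraries was closest to it were Ddb1, Copb2 and Arf1. Their root mean square distances from the centred log2 CPM of Olig2 were 0.0114, 0.0147 and 0.0329. With 4 libraries such closeness is a description only, and none of the 3 is among the lineage genes listed here.

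Nkx2-2 (chromosome 2, 147177546 to 147194243, minus strand) had 1257 and 837 counts in deleted cells of lines A and B, against 810 and 631 in undeleted cells. The deleted library was higher within each line, but deleted B at 26.2 CPM lay below undeleted A at 27.3 CPM, so the groups overlap. The log2 fold change was 0.48 (SE 0.09, 95% interval 0.24 to 0.72), with 0.46 in line A and 0.50 in line B. Fits that leave out 1 library, and with it the block, gave 0.19 without deleted A, 0.22 without undeleted B, 0.70 without deleted B and 0.78 without undeleted A. The edgeR adjusted p of 0.0542 was just above the threshold, and it was 0.0341 with no filter on low counts and 0.0920 in DESeq2. Its antisense neighbour Nkx2-2as, which shares 10161 bases of the locus, had 313 and 174 counts in deleted cells of lines A and B, against 202 and 142 in undeleted cells. Whether strand was used in counting is not given in the sources used here, so reads of the pair cannot be told apart where they overlap.

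Neither precursor surface gene, Cspg4 or Pdgfra, passed the test in edgeR. Cspg4 (chromosome 9, 56865104 to 56899870, plus strand) had 2348 and 2008 counts in deleted cells of lines A and B, against 1571 and 1166 in undeleted cells. That is 66.4 ± 5.20 CPM in deleted and 43.5 ± 13.2 CPM in undeleted cells (SD, n = 2 each), with both deleted libraries above both undeleted ones. Its log2 fold change was 0.64 (SE 0.13, 95% interval 0.31 to 0.97), with 0.41 in line A and 0.88 in line B, and without the block 0.33 when undeleted B was left out to 0.95 when undeleted A was left out. The edgeR adjusted p was 0.0572, against 0.0259 with no filter on low counts and 0.00323 in DESeq2. Pdgfra (chromosome 5, 75152291 to 75198204, plus strand) had 344 and 1724 counts in deleted cells of lines A and B, against 279 and 1620 in undeleted cells. Both libraries of line B were far above both of line A, and the groups overlap (log2 fold change 0.16, SE 0.09, 95% interval −0.07 to 0.39, edgeR adjusted p = 0.293). Within lines it was 0.13 (A) and 0.18 (B).

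Gpr17 and Bcas1 are commonly used to mark steps between precursor and myelinating cell. Gpr17 (chromosome 18, 31942997 to 31949636, minus strand) had 33 and 163 counts in deleted cells of lines A and B, against 38 and 184 in undeleted cells, again with the lines apart and the groups overlapping. Its log2 fold change of −0.19 (SE 0.22, 95% interval −0.77 to 0.38, edgeR adjusted p = 0.591) had an interval wide enough to hold a change in either direction, with −0.38 in line A and −0.08 in line B. All 6640 bases of the gene lie inside Lims2 on the other strand, which had 5 and 27 counts in deleted cells of lines A and B, against 7 and 24 in undeleted cells. Bcas1 (chromosome 2, 170346991 to 170427845, minus strand) had 862 and 772 counts in deleted cells of lines A and B, against 602 and 747 in undeleted cells. Both deleted libraries were the higher ones in CPM (log2 fold change 0.24, SE 0.11, 95% interval −0.04 to 0.52, edgeR adjusted p = 0.206), with 0.35 in line A and 0.14 in line B.

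The myelin genes differed in level by far more than either differed between groups. Cnp (chromosome 11, 100574904 to 100591729, plus strand), a phosphodiesterase of oligodendrocytes, had 3002 and 2777 counts in deleted cells of lines A and B, against 2177 and 2717 in undeleted cells. It averaged 88.2 ± 2.02 CPM in deleted and 76.5 ± 4.55 CPM in undeleted cells (SD, n = 2 each), a log2 fold change of 0.21 (SE 0.07, 95% interval 0.01 to 0.40, edgeR adjusted p = 0.147), with 0.29 in line A and 0.12 in line B. Dnajc7 overlaps 8912 bases of the locus on the other strand and had 6598 and 6345 counts in deleted cells of lines A and B, against 6073 and 7893 in undeleted cells, so reads could be shared here as well. Mbp (chromosome 18, 82475146 to 82585637, plus strand), the structural protein of compact myelin, had 24 and 33 counts in deleted cells of lines A and B, against 16 and 13 in undeleted cells. Both deleted libraries were above both undeleted ones, but at this depth the interval of its log2 fold change ran from −0.14 to 1.99 (estimate 0.92, SE 0.41, edgeR adjusted p = 0.204). Line A alone gave 0.41 and line B alone 1.44.

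**Figure D2:**
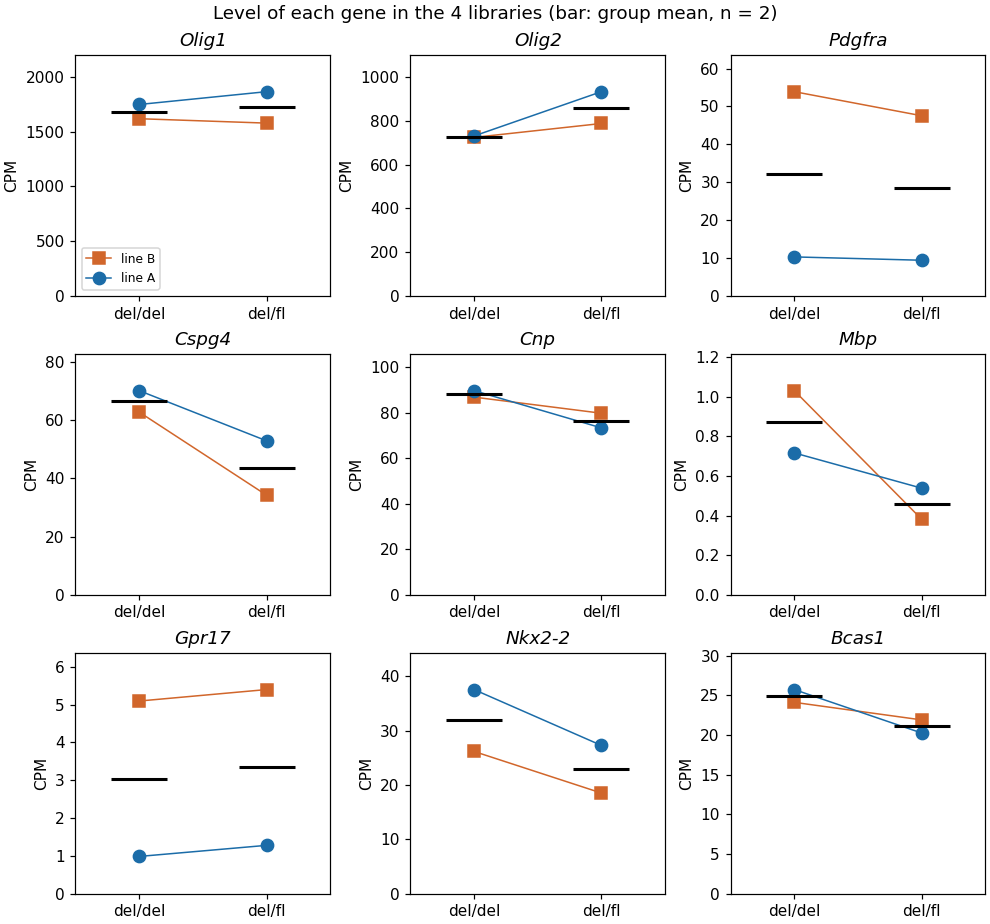
CPM of each gene in del/del (left) and del/fl (right) libraries, with line A as circles, line B as squares, a thin line joining the libraries of a line and a bar at the group mean (n = 2). Cspg4, Olig2, Cnp, Mbp and Bcas1 separate by group, while Pdgfra, Gpr17, Nkx2-2 and Olig1 separate by line.

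**Figure D3:**
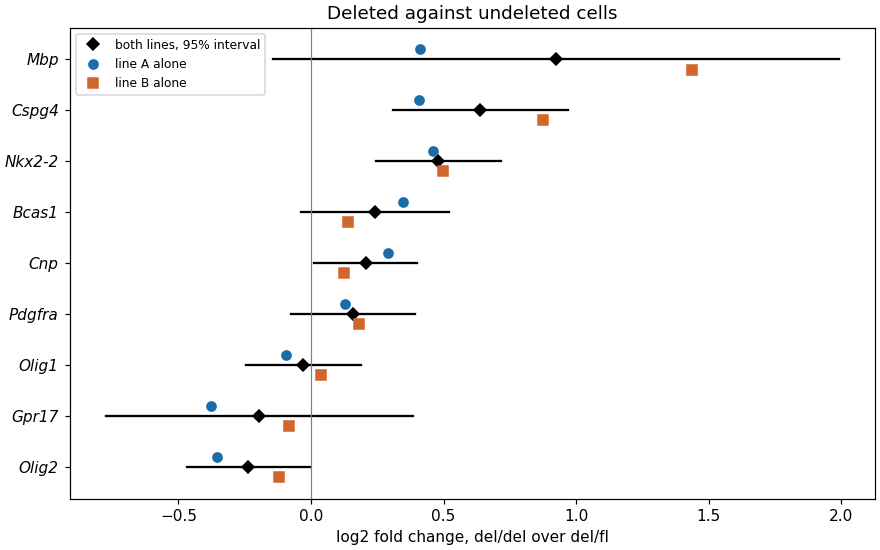
Log2 fold change of del/del over del/fl for each gene, with the estimate over both lines and its 95% interval in black and the values within line A (circles) and line B (squares). Olig1 is the gene whose lines lie on opposite sides of 0, at −0.09 in line A and 0.04 in line B.

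Line B differed from line A in 3 of the 9 genes (same edgeR fit, line coefficient with genotype as a block, Benjamini-Hochberg over all genes), where 10.1% of all genes differed. The 9 genes were chosen with earlier results of these data known, so this share is a description only. Pdgfra and Gpr17 were higher in line B, as were 3.51% of all genes, and Nkx2-2 was lower, as were 6.63%. Pdgfra was at 53.9 and 47.5 CPM in deleted and undeleted cells of line B, against 10.3 and 9.39 CPM in line A, a 5.15-fold difference (log2 2.37, SE 0.09, edgeR adjusted p = 0.00308). Gpr17 was at 5.10 and 5.40 CPM in deleted and undeleted cells of line B, against 0.986 and 1.28 CPM in line A, a 4.65-fold difference (log2 2.22, SE 0.23, edgeR adjusted p = 0.0146). Nkx2-2 went the other way, at 26.2 and 18.5 CPM in deleted and undeleted cells of line B, against 37.5 and 27.3 CPM in line A (log2 −0.54, SE 0.09, edgeR adjusted p = 0.0341). Without genotype as a block Pdgfra passed (adjusted p = 0.0476), and Gpr17 (0.148) and Nkx2-2 (0.457) did not.

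The gap between lines was present in both genotypes for these genes. Pdgfra was 5.25-fold higher in line B among deleted and 5.06-fold among undeleted libraries, Gpr17 was 5.17-fold and 4.22-fold higher, and Nkx2-2 stood at 0.697-fold and 0.679-fold of line A. A term for this difference between genotypes could not be fitted with 1 library per line and genotype. Cspg4 was not called between lines (log2 −0.39, SE 0.13, edgeR adjusted p = 0.123), nor were Olig1 (−0.18), Olig2 (−0.13), Cnp (0.04), Mbp (0.11) and Bcas1 (0.01). In 4 of the 9 genes, these 3 and Olig1, the libraries of the lines did not overlap, against 44.5% of all genes.

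**Figure D4:**
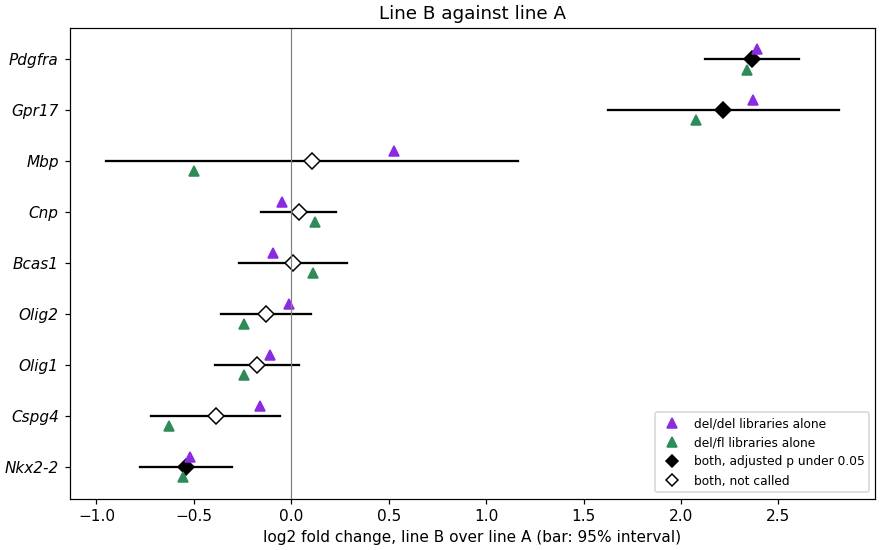
Log2 fold change of line B over line A for each gene, with the estimate over both genotypes (diamond, filled where the adjusted p was under 0.05) and its 95% interval, and triangles for the deleted and the undeleted libraries alone. Pdgfra and Gpr17 lie above 2, Nkx2-2 lies at −0.54 and the other 6 lie between −0.39 and 0.11.

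A wider set held 113 lineage gene symbols in 5 lists, and 90 of them were tested. Of these 90, 11 (12.2%) rose in deleted cells and 1 fell, against 3.71% and 1.89% of all genes. The lists were chosen with earlier results of these data known, so the shares are a description and no test of the lineage. The median log2 fold change of the 90 was 0.29. These counts rest on the block, since without it edgeR called 0 of them and 0 of all genes (1019 higher and 718 lower by unadjusted p under 0.05). Of the 17 tested lineage transcription factors 1 rose and 0 fell (median of the list 0.04). Sox10, which sustains the lineage and drives myelin genes, had 60 and 265 counts in deleted cells of lines A and B, against 31 and 210 in undeleted cells, and was not called (log2 fold change 0.56 with SE 0.21, edgeR adjusted p = 0.156).

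Of 20 tested precursor genes 4 rose and 0 fell, and each of the 20 was above 0 on the log2 scale (median 0.81). The proteoglycan gene Bcan had 22650 and 17138 counts in deleted cells of lines A and B, against 8342 and 9180 in undeleted cells (log2 fold change 1.13 with SE 0.09, edgeR adjusted p = 0.0195). The receptor phosphatase gene Ptprz1 (0.82, SE 0.12), the adhesion gene Dscam (0.85, SE 0.10) and the potassium channel gene Kcnj16 (0.77, SE 0.08) rose too. Within lines A and B the log2 fold changes, with a prior count of 2, were 1.27 and 0.99 for Bcan, 1.01 and 0.63 for Ptprz1, 0.77 and 0.92 for Dscam and 0.87 and 0.67 for Kcnj16. All 4 were thus positive in both lines, and none of the 4 was called without the block. Many genes of this list, Bcan and Ptprz1 among them, are also known from astrocytes and neural stem cells, and 20 of its 21 genes in the table passed the filter here. Astrocyte markers moved with the same contrast, with 5 of 8 higher and a summed level of 993 and 911 CPM in deleted cells of lines A and B, against 568 and 573 CPM in undeleted cells. Their part in the 4 calls among precursor genes was not tested.

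Among committed and premyelinating genes 1 of 13 tested rose, the calcium channel gene Itpr2 (log2 fold change 0.62 with SE 0.06, edgeR adjusted p = 0.0227), with 0.62 in line A and 0.62 in line B, and the median of the list was 0.06. Bmp4 and Neu4 had 0 counts in every library. Among myelin and mature oligodendrocyte genes 2 of 20 tested rose, with a median of 0.39, and 10 of the 30 in the table were too low to test. Aspa, which encodes the enzyme that splits N-acetylaspartate, had 112 and 70 counts in deleted cells of lines A and B, against 24 and 14 in undeleted cells (2.20 with SE 0.28, edgeR adjusted p = 0.0308), and Plekhb1 rose by 0.64 (SE 0.10). Aspa stood at 1.97 in line A and 2.25 in line B, and Plekhb1 at 0.77 and 0.51. Mog had 1 and 1 counts in deleted and 2 and 2 in undeleted libraries, and Mag had 0 and 1 counts in deleted and 0 and 0 in undeleted libraries. Mog and Mag, which define mature oligodendrocytes, were therefore at or near 0 in both groups.

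Among PDGF and other growth signals 3 of 21 tested genes rose and 1 fell (median 0.03). The gene that fell was Pdgfa, the main ligand of the Pdgfra receptor, with 1071 and 894 counts in deleted cells of lines A and B, against 1978 and 1857 in undeleted cells (log2 fold change −1.01 with SE 0.08, edgeR adjusted p = 0.0194). Both deleted libraries were well below both undeleted ones, with −1.06 in line A and −0.96 in line B, while Pdgfra itself was not called. The neuregulin receptor gene Erbb4 rose by 1.04 (SE 0.17), from low counts that differed by line, with 140 and 674 in deleted cells of lines A and B, against 51 and 389 in undeleted cells. Line A gave 1.25 and line B 0.88, but the value was −0.67 without deleted B and 2.88 without undeleted B in fits with no block. The adhesion receptor gene Gpr56 rose by 0.58 (SE 0.07) and the coreceptor gene Nrp1 by 0.47 (SE 0.08). Gpr56 was at 0.56 in line A and 0.60 in line B, and Nrp1 at 0.54 and 0.39. Leaving out 1 library, and with it the block, gave 0.17 for Nrp1 without deleted A, 0.28 without undeleted B, 0.71 without deleted B and 0.69 without undeleted A.

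**Figure D5:**
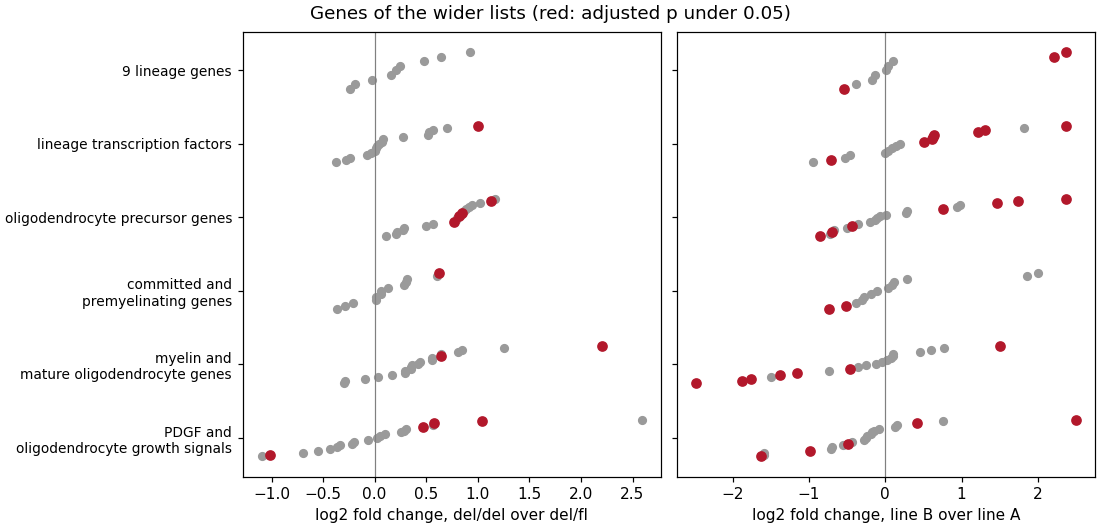
Log2 fold change of each tested gene of the 9 lineage genes and the 5 wider lists, for del/del over del/fl (left) and line B over line A (right), with genes of an adjusted p under 0.05 in red. Precursor genes lie to the right of 0 in the left plot, and in the right plot several transcription factors lie above 1 and several mature genes below −1.

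Other lineage genes also differed between lines, and are named here after their values were seen. Line B was higher in 13 of the 90 wider genes (14.4%, against 3.51% of all genes) and lower in 15 (16.7%, against 6.63%). Because the lists were chosen with earlier results of these data known, these shares are a description only. Besides Erbb4 (log2 2.51, SE 0.18), the higher ones included Sox10 (2.37, SE 0.22), the retinaldehyde-binding protein gene Rlbp1 (1.75), the matrilin gene Matn4 (1.46), the zinc finger gene Zfp488 (1.30) and another zinc finger gene, Myt1 (1.22). Ugt8a, which encodes an enzyme of myelin lipid synthesis, was 2.83-fold higher in line B and was the 1 gene of the mature list called higher. The lower ones included Gsn (−2.48), Cryab (−1.88), the transferrin gene Trf (−1.75), Shh (−1.63) and Nfasc (−1.15), and 6 genes of the mature list were lower. Precursor genes went both ways, with 4 higher and 3 lower in line B, the lower ones being Nxph1 (−0.86), Sulf2 (−0.69) and Gria3 (−0.43). Of the transcription factors 7 were higher and 1 was lower, Tcf7l2 (−0.72).

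Markers of other cell types give the setting of these values. Neural stem cell markers were at a summed 9939 and 8874 CPM in deleted cells of lines A and B, against 9570 and 8812 CPM in undeleted cells, and 1 of 10, Slc1a3, which astrocytes express too, rose. Without Slc1a3 the sum was 7534 and 6262 CPM in deleted cells of lines A and B, against 8371 and 7429 CPM in undeleted cells. These sums overlap between groups, and most of each came from Vim and Nes. Slc1a3 was left out after the values were seen, and the other 9 genes were not called. Neuron markers summed to 145 and 108 CPM in deleted cells of lines A and B, against 237 and 143 CPM in undeleted cells, with 1 higher (Elavl3) and 1 lower (Syt1) of 9 tested. Without Syt1 the sum was 83.1 and 82.0 CPM in deleted cells of lines A and B, against 66.6 and 70.9 CPM in undeleted cells, so the lower sum came from Syt1. Mesenchyme and pericyte markers summed to 14.3 and 24.4 CPM in deleted cells of lines A and B, against 28.2 and 16.2 CPM in undeleted cells. Most of each sum came from Acta2, with 282 and 709 counts in deleted and 750 and 469 in undeleted libraries. Rgs5 had 119 and 10 counts in deleted and 26 and 20 in undeleted libraries, and Col1a1 had 37 to 54 a library. Pdgfrb had 3 and 5 counts in deleted and 4 and 1 in undeleted libraries. Microglia markers summed to 10.4 to 11.3 CPM in every library, with Cx3cr1, Tyrobp and C1qa at 0 counts in all. Most of that sum came from Csf1r, at 251 to 304 counts a library, and P2ry12, at 48 to 96. Of 6 tested Schwann cell markers 3 rose and 0 fell.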

How the data were processed

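RNA of 4 libraries was analysed, 2 per group, from 2 lines. The deposited table holds unnormalized whole-number counts for each gene, made by the authors. Per the submitters' processing notes, tools were bcl2fastq, TopHat2 2.0.12 and edgeR, on mm10. The sources used here do not give the counting method or its use of strand. Of 12 columns of counts, the 4 totals were used. The 8 counts by parental genome were not analysed here, because their columns name a line and not a single labelled sample, and the allele comparisons planned on them were left out. Groups came from the labels, and line from the number shared by column names.

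Genes passing filterByExpr were fitted in edgeR 4.0.16 (TMM, quasi-likelihood, R 4.3.3) with genotype and line as terms and Benjamini-Hochberg adjustment over 14860 genes at 0.05. Line is a block because each line was divided, per the labels. Deviations of libraries of the same line from their group means correlated across genes, which are no replicates (r = 0.716). Libraries of the same group were no repeats of each other: chi-square over degrees of freedom was 71.1 between deleted and 43.9 between undeleted libraries. Other pairs of libraries were not compared in this way. The fit was tested on simulated data. Within-line intervals are exact binomial (95%, scipy 1.17.1). Alternatives were the fit without the block, DESeq2 1.42.0 and its size factors, no low-count filter, and leaving out libraries.

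The genes and lists were chosen with earlier results of these data known. All 9 genes are given. Each wider list gives its called genes, up to 6, except for 1 that is not reported here, and Sox10, Mog, Mag, Bmp4, Neu4, Slc1a3, Syt1 and Elavl3 were added after their values were seen. Genes like Olig2 are the 3 nearest in centred log2 CPM (prior count 2). Of the 113 wider symbols, 108 were in the table.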

Additional observations from a re-analysis of the deposited data

Results flagged for a closer look

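Olig1 had a log2 fold change of deleted over undeleted cells of −0.0936 in line A and 0.0363 in line B. It was picked out because its lines moved in opposite directions, with 1 library per group in each, and the difference between lines was not tested.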

How the results depend on the processing

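Fold changes of the 9 genes kept their direction under DESeq2, DESeq2 size factors, no low-count filter and no replicate block. Without the block, edgeR called 0 genes higher and 0 lower over all genes (by unadjusted p under 0.05, 1019 and 718), and 0 higher and 0 lower among the wider lists. With no low-count filter these counts were 1131 and 671 over all genes and 20 and 3 in the lists, and DESeq2 with the block gave 769 and 421 over all genes and 18 higher in the lists. Of the 9 genes, 2 were then called higher with no filter (Cspg4 and Nkx2-2) and 1 in DESeq2 (Cspg4). The cause was not tested. Leaving out each library left too few for the block, so those fits carry the gap between lines, and the lone library is assumed to vary like the other group. They called 0 to 0 genes over all genes and in the lists (by unadjusted p under 0.05, 466 to 1312 higher and 178 to 670 lower). Log2 fold changes over these fits and single lines ran from −0.15 to 0.09 for Olig1, −1.49 to 1.77 for Pdgfra, −1.78 to 1.25 for Gpr17 and −0.67 to 2.88 for Erbb4, with signs opposite to the fit with the block for Olig1 without deleted B (0.00252) and undeleted A (0.0887), Pdgfra without deleted B and undeleted A (−0.57), Gpr17 without deleted A (0.60) and undeleted B, and Erbb4 without deleted B. With line as the only term, 3 genes were higher and 5 lower in line B over all genes, 1 and 0 among the 9 genes, and 0 and 0 in the lists. With no filter, 799 genes were higher in line B. The planned allele comparisons were not run. Depth limits Mbp, at 13 to 33 counts a library.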

Other observations

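Schwann cell marker genes, which are outside the lineage lists and were picked for naming after their values were seen, included 3 that rose. The neurotrophin receptor gene Ngfr had 168 and 64 counts in deleted cells of lines A and B, against 19 and 12 in undeleted cells (log2 fold change 2.76 with SE 0.29, edgeR adjusted p = 0.0227). Egr2, a transcription factor gene, had 682 and 640 counts in deleted cells of lines A and B, against 249 and 258 in undeleted cells (1.34 with SE 0.12, edgeR adjusted p = 0.0214). The hedgehog ligand gene Dhh had 835 and 1210 counts in deleted cells of lines A and B, against 432 and 861 in undeleted cells (0.68 with SE 0.10, edgeR adjusted p = 0.0405).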
